A study of Homo sapiens with 6 samples.

Results

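The genes described here lie near each other, with some other genes between them, on the long arm of human chromosome 8, in band 8q12: NSMAF, SDCBP, TOX, RAB2A, CHD7, CLVS1, ASPH, GGH, TTPA and YTHDF3. These 10 genes, of 59565 loci in the count table, were chosen by position, within about 58 to 64 Mb on GRCh38, around ASPH and TTPA. ASPH and TTPA were picked because their counts were higher in the resistant cells, and the question is whether genes beside them share that difference. The members' values in this contrast are therefore a description. Calls from the fit over all loci are named for them, and they support nothing. Gene-level RNA-seq counts were available for 3 libraries of parental C4-2 cells and 3 libraries of an enzalutamide-resistant line of the same cells, labelled Enz-R. C4-2 is an established line of human prostate cancer cells that descends from LNCaP, and the drug enzalutamide blocks the androgen receptor. The labels name no other treatment, no time and no separate cultures, and they do not say whether Enz-R is a clone or a pool or was in the drug when collected. Any spread between libraries may thus be technical.

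ASPH encodes an enzyme of the endoplasmic reticulum that hydroxylates aspartate and asparagine in EGF-like domains, such as those of Notch receptors and their ligands, and the same gene encodes junctin and junctate, shorter proteins that take part in calcium handling. TTPA encodes the alpha-tocopherol transfer protein, best known from liver, which binds vitamin E and passes it on for secretion. It belongs with CLVS1 to the CRAL-TRIO family of carriers of small lipids. The other members are neighbours with unrelated work. GGH trims the glutamate tail of folates in lysosomes, RAB2A is a GTPase of traffic between the endoplasmic reticulum and the Golgi, SDCBP (syntenin) is an adaptor that binds syndecans, and NSMAF is a BEACH protein that binds the TNF receptor. CHD7 is a chromatin remodeller, TOX is an HMG-box factor best known in T cells, and YTHDF3 reads N6-methyladenosine in mRNA.

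Library totals ran from 15673404 to 28247038 counts. Levels are given as CPM, each gene's counts over the library total on a common scale, with totals scaled by TMM, a method that removes differences in composition between libraries. Over the whole table the groups differed widely. With edgeR's quasi-likelihood test and Benjamini-Hochberg adjustment over the 19029 loci that passed a filter on low counts, 64.8% were called at an adjusted p under 0.05, with 32.4% higher and 32.3% lower in Enz-R. The groups did not overlap for 68.9% of tested loci, with every Enz-R library above every parental one for 34.2% and the reverse for 34.7%. All 10 prostate luminal markers were detected, with a summed level of 9547 to 10162 CPM in parental and 5554 to 5777 CPM in Enz-R libraries. The sum does not stand for each marker. Of the 10, 3 were called higher and 6 lower, with log2 fold changes from -2.09 to 0.70. The summed level of 7 immune cell markers was 4.11 to 4.93 CPM in parental and 3.97 to 4.65 CPM in Enz-R, that of 5 endothelial markers 9.64 to 11.96 and 4.71 to 6.02 CPM, and that of 6 fibroblast markers, mostly COL1A1, 60.3 to 63.4 and 49.5 to 58.6 CPM. The defining markers PTPRC and CD3E of immune cells, PECAM1 and CDH5 of endothelium and DCN of fibroblasts averaged at most 0.0977 CPM in either group, though none was at 0 in a whole group.

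Of the 10 members, 8 passed the count filter, and TTPA passed it only through the Enz-R libraries. In Enz-R, 4 were called higher (SDCBP, ASPH, GGH and TTPA), none was called lower, and 4 were not called (NSMAF, RAB2A, CHD7 and YTHDF3). The background is the 32.4% of all tested loci called higher, and since the same contrast chose the members, nothing is read from their count. The median log2 fold change of the 8 was 0.16, beside 0.01 over all tested loci. Without ASPH and TTPA it was 0.01 over 6 genes, with 2 called higher. In bulk RNA, more transcript per cell and more cells with the transcript cannot be told apart.

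ASPH (ENSG00000198363, chromosome 8, 61500556 to 61714640, minus strand) was expressed in the parental line. Its level was 83.9, 97.1 and 92.3 CPM in parental replicates 1 to 3 and 1462, 1509 and 1577 CPM in Enz-R replicates 1 to 3. The lowest Enz-R library lay far above the highest parental one, and the spread within each group was small. The means were 91.1 ± 6.67 and 1516 ± 57.5 CPM (SD, n = 3 each), a log2 fold change of 4.06 ± 0.08 (SE) or 16.7-fold. Among 13580 tested protein-coding genes ordered by CPM per kilobase of exon, ASPH stood at rank 7425 in parental and rank 405 in Enz-R cells, and by CPM alone, which favours long genes, at ranks 2286 and 49. By fold change it ranked 73. The counts are per gene, so the hydroxylase cannot be told apart from the junctin and junctate transcripts. ASPH shares 1090 bp at its 3′ end with the end of CLVS1 on the other strand, and no strand setting is given for the counts.

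TTPA (ENSG00000137561, chromosome 8, 63048553 to 63086053, minus strand) was close to silent in the parental libraries, which held 2, 2 and 0 counts. The Enz-R libraries held 273, 218 and 212 counts, or 12.5, 12.8 and 13.7 CPM. All 3 resistant libraries were therefore well above all 3 parental ones, and they differed little among themselves. With 4 and 703 counts over the groups, the ratio was 224-fold, with a 95% counting interval of 87.0 to 823 that covers counting error only. The fitted log2 fold change was 7.67 ± 0.29, the second largest of the 13580 tested protein-coding genes (rank 2). This value and its rank rest on the 4 parental counts. It was 8.12 without parental replicate 2 and 7.19 without parental replicate 3.

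CLVS1 (ENSG00000177182, chromosome 8, 61057158 to 61501645, plus strand), the other CRAL-TRIO gene of the interval, encodes clavesin 1, which acts in traffic of late endosomes. It had 2, 0 and 1 counts in parental and 4, 4 and 5 in Enz-R libraries and did not pass the filter. The groups did not overlap, yet the highest Enz-R library reached only 0.324 CPM. The ratio of 13 to 3 counts was 5.52, with a 95% counting interval of 1.52 to 30.2. Because its last 1090 bp lie over the end of ASPH, whose reads were far more abundant, reads of that stretch cannot be told apart without strand.

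GGH (ENSG00000137563, chromosome 8, 63015079 to 63039171, minus strand) lies 9381 bp from TTPA. Its level was 25.0, 25.6 and 26.8 CPM in parental and 75.7, 66.8 and 74.9 CPM in Enz-R libraries. The groups were clearly apart, at 25.8 ± 0.899 and 72.5 ± 4.93 CPM (SD, n = 3 each). The log2 fold change was 1.49 ± 0.07 or 2.81-fold, smaller than that of ASPH or TTPA on either side of it.

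Among the genes of membrane traffic, SDCBP (ENSG00000137575, chromosome 8, 58552924 to 58582860) was slightly higher in Enz-R. It stood at 75.7, 71.3 and 77.5 CPM in parental and 95.2, 85.9 and 94.1 CPM in Enz-R libraries, so that the groups were close but did not overlap. The log2 fold change was 0.29 ± 0.06, or 1.23-fold. RAB2A (ENSG00000104388, chromosome 8, 60516857 to 60623627) had nearly the same level in all libraries, with 91.0, 93.3 and 94.6 CPM in parental and 101, 87.6 and 91.4 CPM in Enz-R. Its groups overlapped, and the log2 fold change was 0.01 ± 0.06. NSMAF (ENSG00000035681, chromosome 8, 58583504 to 58659844), whose end lies 643 bp from that of SDCBP, stood at 18.4, 22.3 and 20.1 CPM in parental and 20.1, 20.1 and 21.1 CPM in Enz-R libraries. Here too the groups overlapped, with a log2 fold change of 0.02 ± 0.09.

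None of the nuclear and RNA-binding members was called. CHD7 (ENSG00000171316, chromosome 8, 60678778 to 60868028), separated from ASPH only by CLVS1, stood at 38.7, 40.7 and 37.6 CPM in parental and 36.8, 38.7 and 41.0 CPM in Enz-R libraries. The groups overlapped, and the log2 fold change was -0.01 ± 0.07. YTHDF3 (ENSG00000185728, chromosome 8, 63168553 to 63212786), which starts 82499 bp beyond TTPA, stood at 51.4, 58.1 and 57.2 CPM in parental and 55.5, 49.1 and 49.8 CPM in Enz-R libraries. Its groups overlapped as well, with a log2 fold change of -0.11 ± 0.07. Under scaling by total counts YTHDF3 was at -0.20 ± 0.07 and was called lower. TOX (ENSG00000198846, chromosome 8, 58805418 to 59119208) had a single count in parental replicate 2 and none elsewhere, so no comparison was possible at this depth.

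**Figure D1:**
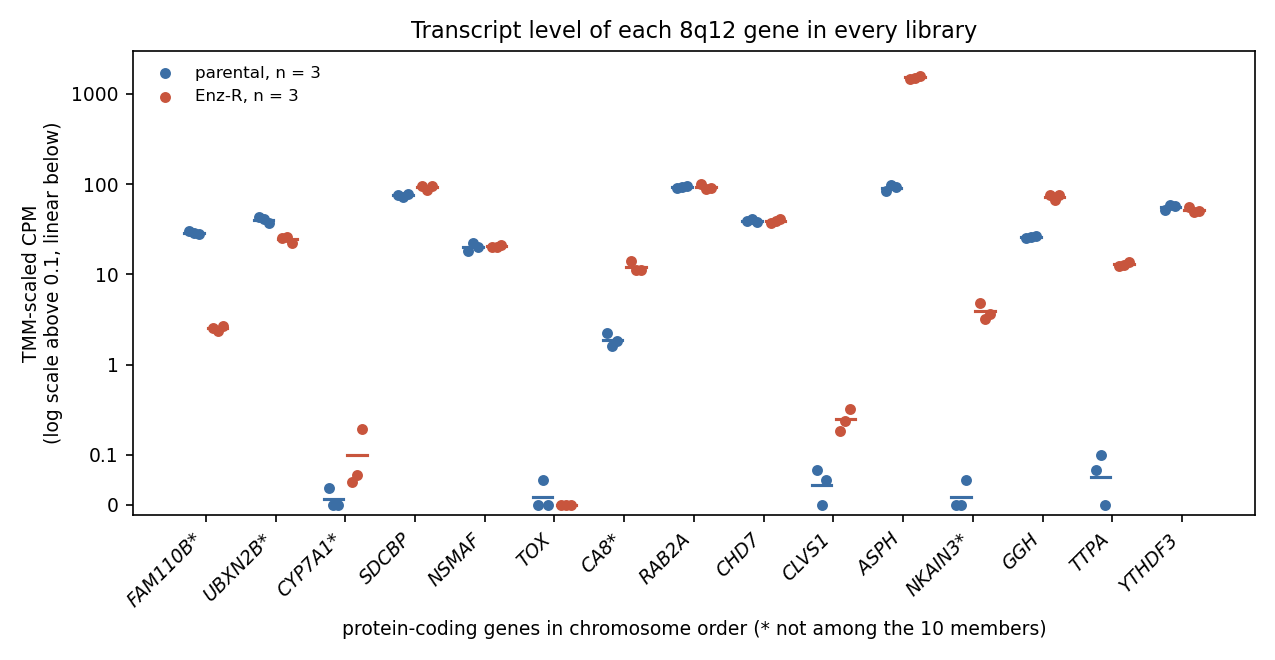
Level of every protein-coding gene of the interval in each library, as TMM-scaled CPM on an axis that is logarithmic above 0.1 and linear below. Points are libraries and short bars are group means (n = 3), blue for parental and red for Enz-R. ASPH, GGH, TTPA and the non-members CA8 and NKAIN3 have red points far above blue ones, while RAB2A, CHD7, NSMAF and YTHDF3 overlap.

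Levels of different genes can be compared only per length, here as CPM per kilobase of annotated exon. In parental cells the order of these levels was RAB2A (16.4 ± 0.322), SDCBP (15.7 ± 0.671), YTHDF3 (9.02 ± 0.591), GGH (8.25 ± 0.287), ASPH (4.54 ± 0.333), NSMAF (3.28 ± 0.320) and CHD7 (2.30 ± 0.0937), all as CPM per kilobase (SD, n = 3). TTPA, CLVS1 and TOX followed at 0.0237 or less. The ranges of RAB2A and SDCBP overlapped, as did those of YTHDF3 and GGH and those of TTPA, CLVS1 and TOX, so these neighbours in the order did not differ beyond their spread. In Enz-R cells ASPH led at 75.6 ± 2.87 CPM per kilobase, ahead of GGH (23.2 ± 1.58), SDCBP (19.2 ± 1.06) and RAB2A (16.5 ± 1.24). TTPA, at 5.44 ± 0.269 CPM per kilobase, had passed NSMAF (3.32 ± 0.0904) and CHD7 (2.29 ± 0.124) and stood below YTHDF3 (8.34 ± 0.569). ASPH has 20047 bp of annotated exon over all its transcripts, so its level per length is understated where cells use the shorter ones.

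All 15 protein-coding genes annotated wholly or partly in the 58 to 64 Mb interval were then placed in order, including 5 that are not members: FAM110B, UBXN2B, CYP7A1, CA8 and NKAIN3. Of the 12 that passed the filter, 6 were called higher and 2 lower in Enz-R and 4 were not called. These counts hold ASPH and TTPA, which chose the interval, and NKAIN3, which like TTPA passed the filter only through Enz-R. Without these 3, 3 of 9 tested genes were higher (SDCBP, GGH and CA8) and 2 lower, with a median of 0.01. Of 15 tested genes at 52 to 58 Mb, 8 were higher and 3 lower with a median log2 fold change of 0.19. Those 8 include OPRK1 and SDR16C5, which likewise passed the filter only through Enz-R. This flank is therefore to be set beside all 12 genes of the interval, not beside the 9. Of 15 at 64 to 70 Mb, 8 were higher and 2 lower with a median of 0.19. The median over the interval's 12 was 0.16. On chromosome 8 above 45 Mb, 44.9% of 296 tested protein-coding genes were higher, with a median of 0.13, whereas below 45 Mb 18.2% of 159 were higher and 44.7% lower, with a median of -0.13. Over all 13580 tested protein-coding genes 31.8% were higher and the median was -0.05.

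Of the 4 tested genes of the interval that are not members, 2 were called higher and 2 lower. NKAIN3 (chromosome 8, 62248591 to 62999652), which encodes a brain protein that binds the sodium-potassium pump, is the only protein-coding gene between ASPH and GGH. It had 0, 0 and 1 counts in parental and 105, 55 and 56 counts in Enz-R libraries, a ratio of 275-fold with a 95% counting interval of 48.8 to 10910. Having passed the filter only through Enz-R, it had to differ, and no p is given. Without parental replicate 3, which held the only parental count, its fitted log2 fold change moved from 7.58 to 9.33. CA8, a carbonic anhydrase relative without enzyme activity (chromosome 8, 60187347 to 60281412), stood at 2.23, 1.60 and 1.81 CPM in parental and 13.9, 11.2 and 11.3 CPM in Enz-R libraries. It rose by 2.67 ± 0.16 on the log2 scale (edgeR adjusted p = 2.35e-09).

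The 2 that fell lie at the lower edge of the interval, beyond SDCBP. FAM110B, which encodes a centrosome-associated protein (chromosome 8, 57994509 to 58204279), fell from 30.3, 28.3 and 27.7 CPM in parental to 2.56, 2.35 and 2.65 CPM in Enz-R libraries, a log2 fold change of -3.51 ± 0.11 (edgeR adjusted p = 1.43e-12). UBXN2B, an adaptor of the p97 ATPase (chromosome 8, 58411264 to 58451501), fell from 40.3 ± 2.65 to 24.6 ± 2.07 CPM (SD, n = 3 each), or by 0.71 ± 0.08 on the log2 scale (edgeR adjusted p = 1.58e-06). CYP7A1, the rate-limiting enzyme of bile acid synthesis, had 1 parental and 5 Enz-R counts and was not tested.

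Read in order along the chromosome, the genes from ASPH to TTPA, 1585498 bp from end to end, were all higher in Enz-R: ASPH, NKAIN3, GGH and TTPA. On one side CHD7 and RAB2A did not pass the test, with the barely detected CLVS1 between CHD7 and ASPH. Beyond RAB2A, CA8 was again higher, by 2.67 ± 0.16 on the log2 scale. On the other side YTHDF3 did not pass the test. The bounds of this run were seen in the data and were not fixed beforehand, so it has no test. Large fold changes from near 0 were not limited to it. In the flank at 52 to 58 Mb the opioid receptor gene OPRK1 had 1 parental and 174 Enz-R counts, and the dehydrogenase gene SDR16C5 had 3 and 52, both named after their values were seen.

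**Figure D2:**
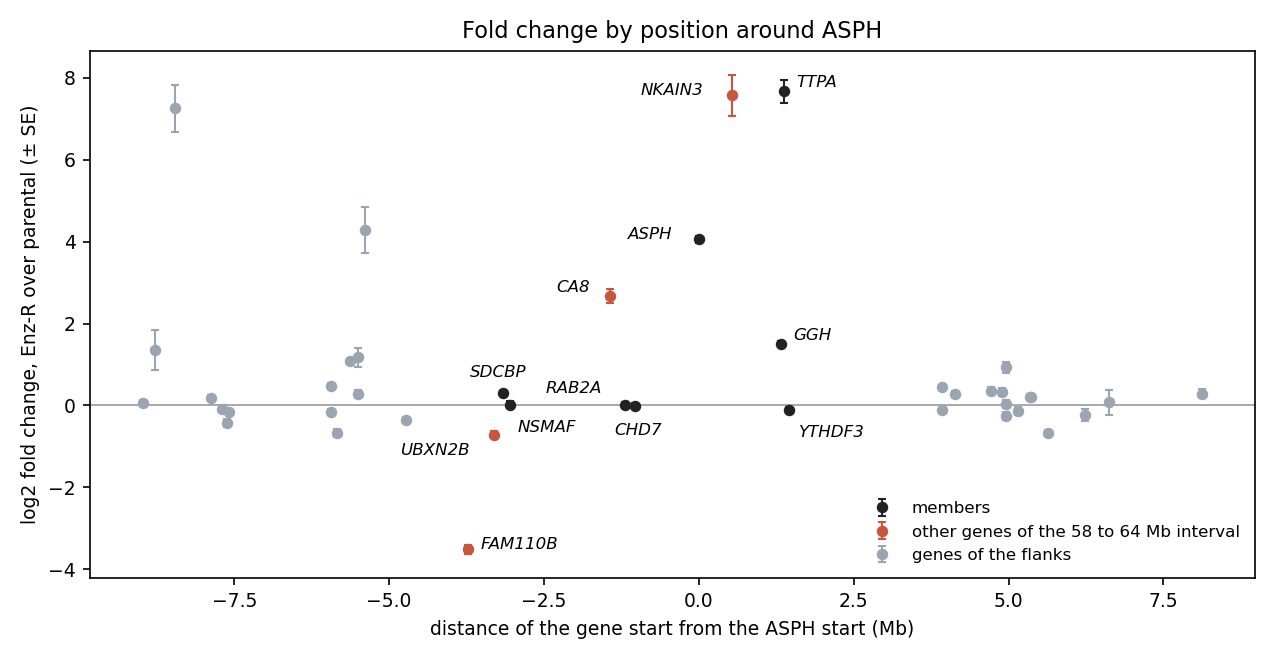
Log2 fold change of Enz-R over parental (± SE of the fit) for each tested protein-coding gene, against the distance of its start from the ASPH start in Mb, with members in black, other genes of the interval in red and flanking genes in grey. ASPH, NKAIN3, GGH and TTPA stand above 1 while CHD7, RAB2A and YTHDF3 lie near 0. CA8 in the interval and flanking genes such as OPRK1 and SDR16C5 also stand above 1, and FAM110B lies at -3.51. Fitted values of genes with at most 4 parental counts, such as TTPA and NKAIN3, depend on the fit's prior count.

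The interval also holds 63 annotated loci that are not protein-coding, mostly long noncoding RNAs and pseudogenes, of which only 9 passed the count filter. Of these 9, 5 were called higher (KRT8P3, RN7SKP97, LINC02842, NKAIN3-IT1 and YTHDF3-DT), 1 lower (LINC01301) and 3 not called. They are named after their values were seen. RN7SKP97, LINC02842 and NKAIN3-IT1, with 5, 0 and 1 parental counts in all, passed the filter only through Enz-R, so nothing is read from the count. Summed by place, no place from CA8 to CLVS1 had every Enz-R library above every parental one. The 2 between CA8 and RAB2A, nearly all LINC01301, held 115 parental and 51 Enz-R counts. The 4 between CHD7 and CLVS1 held 10 parental and 8 Enz-R counts, and the 3 inside CLVS1 held 54 and 50.

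From ASPH to NKAIN3 the counts were higher in Enz-R. The 2 loci inside ASPH, KRT8P3 and RN7SKP97, held 14, 13 and 11 counts in parental and 41, 51 and 36 counts in Enz-R libraries. Reads from ASPH introns cannot be told apart from theirs, and KRT8P3 resembles the keratin gene KRT8, which was itself higher by 0.40 ± 0.06 on the log2 scale. The 8 loci between ASPH and NKAIN3, where no protein-coding gene lies, held 0 counts in every parental library and 60, 34 and 43 counts in Enz-R libraries, with counts at 7 of the 8. Most came from the long noncoding RNA LINC02842 (chromosome 8, 61785047 to 61944180), with 0 parental and 79 Enz-R counts, at least 33.5-fold higher against a floor of 3 counts over the group.

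Inside or across the ends of NKAIN3, 6 loci held 0, 2 and 0 counts in parental and 45, 45 and 18 in Enz-R libraries, a ratio of 68.7-fold with a 95% counting interval of 18.6 to 575. Most of these were of NKAIN3-IT1, an RNA from a NKAIN3 intron, with 1 and 70 counts. The locus between NKAIN3 and GGH held 1 count in each group, and the one inside GGH held 7 and 10. Between TTPA and YTHDF3 nearly all counts were of YTHDF3-DT, a transcript that starts beside YTHDF3 on the other strand. It stood at 4.83 ± 0.525 CPM in Enz-R (SD, n = 3) and was higher by 0.70 ± 0.16 on the log2 scale (edgeR adjusted p = 0.00134), whereas YTHDF3 itself, 110 bp away, was not called. A difference between that pair was not tested. Beyond YTHDF3, the 10 loci up to the end of the interval held 49 parental and 66 Enz-R counts. Their ratio was 1.71-fold, with a 95% counting interval of 1.17 to 2.53, and every Enz-R library lay above every parental one in summed CPM. Most of these counts were of the long noncoding RNA ENSG00000261542, with 47 and 59, which was not called.

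**Figure D3:**
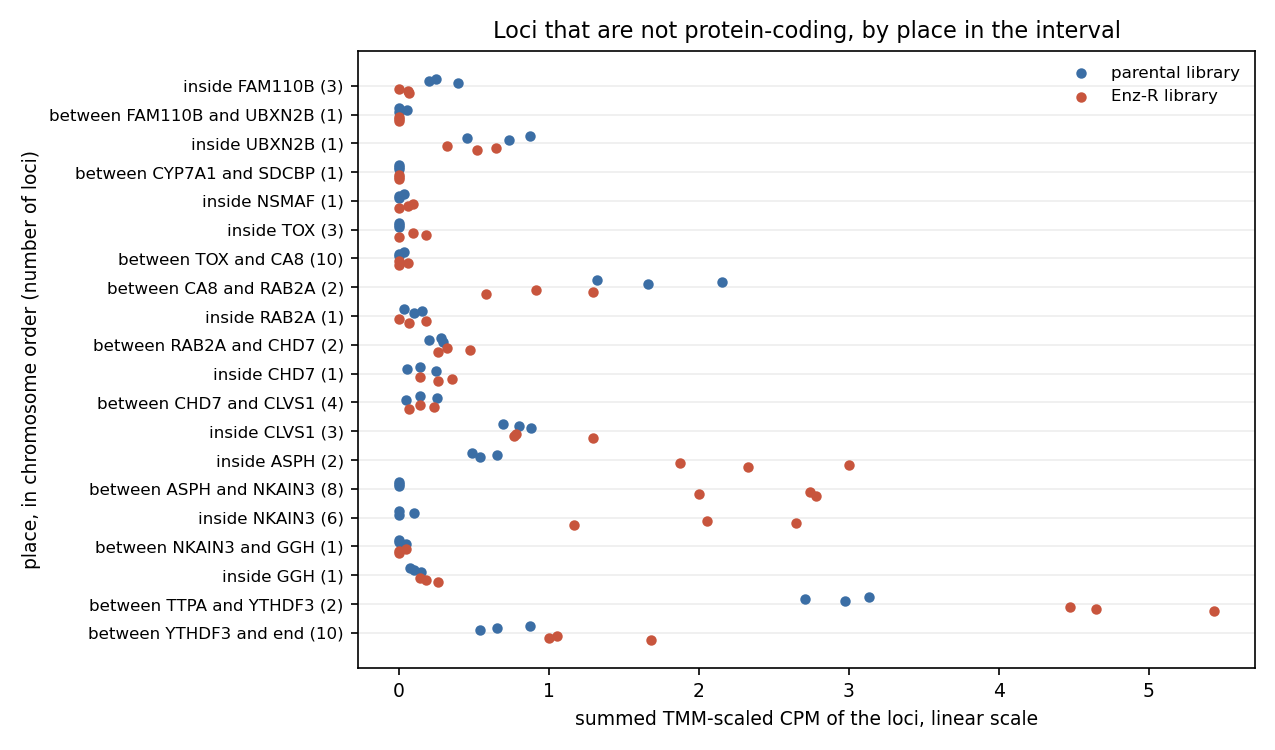
Summed TMM-scaled CPM of the loci that are not protein-coding, by the gene they lie in or the gap between genes, from the lowest to the highest position, with the number of loci in parentheses and 1 point per library (blue parental, red Enz-R). In the gap between ASPH and NKAIN3 all parental points are at 0 and all Enz-R points are above them, while the places from TOX to CLVS1 show no such separation upwards.

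The genes with profiles most like those of ASPH and TTPA lay on other chromosomes. Likeness was the Euclidean distance between log2 CPM profiles over the 6 libraries, each centred on its mean, among tested protein-coding genes. For ASPH the nearest were IFI27L2 on chromosome 14 (distance 0.263), HES7 on chromosome 17 (0.326) and TSPAN7 on chromosome X (0.342). For TTPA they were ABCC11 on chromosome 16 (0.581), CTAG2 on chromosome X (0.614) and UGT2B17 on chromosome 4 (0.633). CTAG2 and UGT2B17 have near-identical relatives that can share their reads. These profiles hold the same group difference that picked ASPH and TTPA, so they mostly find genes with a fold change of like size. Only 12 of the 13580 tested protein-coding genes lie in the interval, so nothing about the neighbours is read from this.

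Genes known to work with the members were taken from 10 lists that hold no member, and most are on other chromosomes. Their counts stand beside 32.4% higher and 32.3% lower over all tested loci, and 31.8% and 37.3% over protein-coding genes. Among 18 relatives and substrates of the ASPH hydroxylase, 17 passed the filter, 8 were higher and 6 lower in Enz-R, with a median log2 fold change of 0.18 (0.01 over all tested loci). The related genes ASPHD1 (0.35 ± 0.08, edgeR adjusted p = 0.000702) and ASPHD2 (1.09 ± 0.18, 8.91e-05) rose, each far less than ASPH. The Notch ligand gene JAG1 fell from 89.7 ± 1.22 to 3.39 ± 0.427 CPM (-4.71 ± 0.09, adjusted p = 5.78e-15). Other Notch ligand genes, named after their values were seen, went both ways, with JAG2 (0.68 ± 0.06), DLL1 (0.77 ± 0.10) and DLL3 (0.53 ± 0.09) higher and DLL4 (-1.69 ± 0.39) lower. DLL4, with 5, 8 and 11 Enz-R counts, passed the filter only through parental. Of the Notch receptor genes, also named afterwards, NOTCH3 (-0.53 ± 0.06) and NOTCH2 (-0.31 ± 0.07) were lower, and NOTCH1 and NOTCH4 were not called. LTBP1, a matrix protein that binds latent TGF-beta, fell by 0.72 ± 0.11. The vitamin K-dependent protein genes GAS6 (1.24 ± 0.08) and PROS1 (1.93 ± 0.15) rose, although PROS1 has a pseudogene that can share its reads.

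Of 18 genes of calcium release and refilling of the endoplasmic reticulum, 15 passed the filter, 4 were higher and 8 lower, with a median of -0.21. The calcium pump gene ATP2A2 fell from 423 ± 17.3 to 184 ± 18.5 CPM (-1.20 ± 0.07, edgeR adjusted p = 2.80e-09), and ATP2A3 fell by 1.61 ± 0.18. The 4 that rose were the store sensor gene STIM2 (0.76 ± 0.07), ITPR2 (0.71 ± 0.14), ITPR1 (0.39 ± 0.10) and the pump gene ATP2A1 (0.36 ± 0.11). ITPR1 and ITPR2 encode IP3 receptors, and the other IP3 receptor gene, ITPR3, fell from 165 ± 4.13 to 80.8 ± 7.77 CPM (-1.03 ± 0.07). The ryanodine receptor genes RYR1, RYR2 and RYR3 were also called lower. ITPR1, ITPR3, ATP2A1 and the ryanodine receptor genes are named after their values were seen. Triadin (TRDN) and the calsequestrins (CASQ1 and CASQ2), which bind junctin in muscle, did not pass the filter.

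The vitamin E and CRAL-TRIO list had 19 genes, of which 10 passed the filter, 3 were higher and 3 lower, with a median of -0.07. TTPAL, a CRAL-TRIO gene named for its likeness to TTPA, fell from 44.3 ± 2.80 to 35.8 ± 0.531 CPM (-0.30 ± 0.07, edgeR adjusted p = 0.00117). The lipoprotein receptor gene SCARB1, which takes up vitamin E with lipids, fell by 0.58 ± 0.06, and CLVS2, the relative of CLVS1, had 0 counts in all libraries. Named after their values were seen, the 3 that rose were APOE (1.49 ± 0.23), NPC1L1 (1.12 ± 0.33) and CD36 (0.78 ± 0.33), each under 5 CPM in both groups. The call of CD36 (edgeR adjusted p = 0.0490) was lost in 9 of the 12 alternatives that tested it. The third that fell was the phospholipid transfer gene PLTP (-3.73 ± 0.33). With 5, 2 and 3 Enz-R counts, PLTP passed the filter only through parental. NPC1L1, with 12, 8 and 8 parental counts, passed it only through Enz-R. Both could be called only in the direction seen, so nothing is read from this list's counts.

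The folate and one-carbon list, the setting of GGH, had 21 genes. Of 20 tested, 4 were higher and 12 lower, with a median of -0.49, beside 32.3% of all tested loci called lower. FPGS, which adds the glutamates that GGH removes and is named here for that role, had a log2 fold change of -0.01 ± 0.06 and was not called (edgeR adjusted p = 0.940). The mitochondrial serine hydroxymethyltransferase gene SHMT2 fell from 433 ± 10.7 to 226 ± 15.0 CPM (-0.94 ± 0.07, adjusted p = 9.28e-09) and MTHFD1L by 0.91 ± 0.10. The methionine synthase gene MTR (0.53 ± 0.06) and MTHFD2L (0.53 ± 0.12) rose, as did ATIC (0.37 ± 0.06) and SLC46A1 (0.28 ± 0.10), named after their values were seen.

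For membrane traffic, 11 of 18 tested RAB and Golgi tether genes were lower and 1 was higher, with a median of -0.31, beside 32.3% of all tested loci called lower. RAB1B fell by 0.61 ± 0.06 and RAB43 by 1.89 ± 0.19 (edgeR adjusted p = 6.27e-07 and 4.19e-07). RAB2B, the closest relative of RAB2A, had a log2 fold change of 0.13 ± 0.07 (adjusted p = 0.126) and was not called. The single gene that rose, RAB33A, named after its value was seen, averaged 0.908 CPM in Enz-R. Its log2 fold change was the list's largest, at 2.48. RAB33A thus passed the filter only through Enz-R and could only be called higher. Of 19 genes of the syndecan and syntenin route to exosomes, 9 were higher and 6 lower, with a median of 0.04. SDCBP2, the relative of SDCBP, rose from 7.11 ± 1.08 to 34.2 ± 0.634 CPM (2.27 ± 0.10, adjusted p = 6.68e-11), and the syndecan gene SDC2, also on chromosome 8, rose by 2.04 ± 0.11. The syndecan gene SDC3 (-1.17 ± 0.06) and RAB27A, which docks secretory vesicles (-3.41 ± 0.09), fell.

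Of 17 tested BEACH and TNF receptor genes, 4 were higher and 8 lower, with a median of -0.12. NBEA (1.11 ± 0.14) and NBEAL2 (0.81 ± 0.06) rose and NBEAL1 (-0.84 ± 0.12) and the acid sphingomyelinase gene SMPD1 (-1.15 ± 0.09) fell, and RACK1 (0.70 ± 0.08) and SMPD3 (0.63 ± 0.13) were the others that rose, named after their values were seen. Of 9 CHD relatives of CHD7, 1 was higher and 5 lower, with a median of -0.23. CHD4 rose by 0.77 ± 0.08 (edgeR adjusted p = 8.81e-07), and CHD3 (-0.41 ± 0.06) and CHD2 (-0.30 ± 0.06) fell, together with CHD8 (-0.28 ± 0.06), CHD1L (-0.27 ± 0.06) and CHD9 (-0.23 ± 0.08), named after their values were seen.

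Among N6-methyladenosine genes, the setting of YTHDF3, none of 17 tested was higher and 10 were lower, with a median of -0.26, beside 32.3% of all tested loci called lower. The reader genes IGF2BP3 (-1.68 ± 0.09, edgeR adjusted p = 6.49e-10) and YTHDF2 (-0.26 ± 0.06) and the demethylase gene FTO (-0.85 ± 0.08) fell, while YTHDF1 stood at -0.11 ± 0.06 (adjusted p = 0.109) beside -0.11 ± 0.07 for YTHDF3. The TOX relatives were expressed although TOX was not. TOX4 stood at 65.2 ± 2.20 CPM in parental and 49.6 ± 2.95 CPM in Enz-R cells (-0.39 ± 0.07, edgeR adjusted p = 8.68e-05). TOX3 (-0.42 ± 0.19, adjusted p = 0.0678) and TOX2 (-0.15 ± 0.18, adjusted p = 0.462) were not called.

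**Figure D4:**
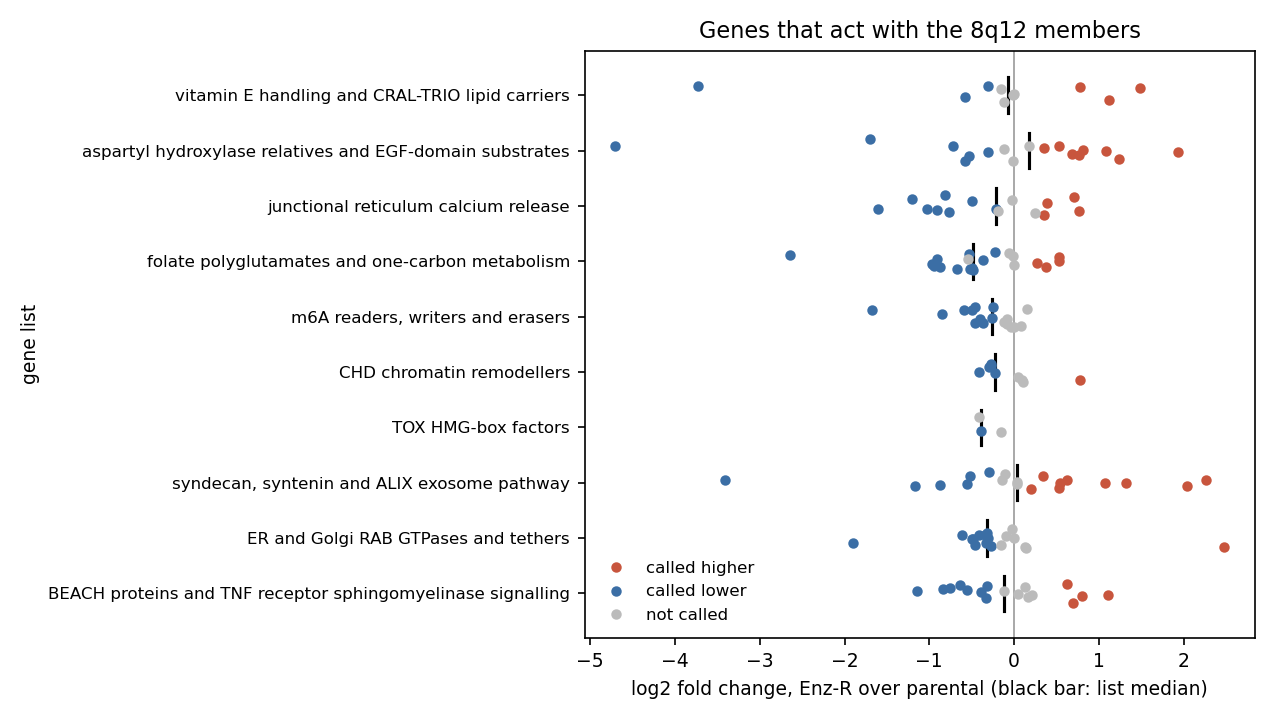
Log2 fold change of Enz-R over parental for each tested gene of the 10 lists, 1 point per gene, red where called higher, blue where called lower and grey where not called, with a black bar at the list median and points spread vertically at random. Medians run from -0.49 for the folate list to 0.18 for the ASPH hydroxylase list, and JAG1 and RAB27A are among the lowest points.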

How the data were processed

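RNA was sequenced as 150 bp paired-end reads in 6 libraries, 3 per group, per the labels. The submitters' processing notes name HISAT2 and the GRCh38 build. Of the HISAT2 version, counter, annotation and strand setting, none is given in the sources used here. The deposited table holds raw counts per gene and library. Its 58676 Ensembl identifiers are all in GENCODE 29, which gave positions and exon lengths on GRCh38, and 889 loci are unannotated. All 10 members matched. Groups come from the labels. The fit used edgeR 4.0.16 in R 4.3.3 (filterByExpr, TMM, glmQLFit, glmQLFTest, no covariate), with Benjamini-Hochberg adjustment over 19029 loci and a threshold of 0.05. The SE is the size of the log2 fold change over the root of F. Counting intervals are exact binomial at 95%. The fit was also run on simulated data in which few genes changed. That run does not show how the fit behaves where most loci differ.

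The members and lists were chosen with earlier results of these data known. Named are the members, the other protein-coding genes at 58 to 64 Mb, close relatives, per list up to 2 called risers and 2 fallers whose higher group reaches 5 CPM, and the 3 nearest profiles (prior count 2). No sequences are shown. Alternatives were DESeq2 1.42.0, limma-voom 3.58.1, other scalings and filters, the replicate number as a block, and leaving out each library. Tables and figures used Python 3.11.15 with pandas 2.3.3, scipy 1.17.1 and matplotlib 3.10.9.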

Additional observations from a re-analysis of the deposited data

How the results depend on the processing

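Over the 13 alternatives, the log2 fold changes of the 8 tested members kept their call and moved by less than 1 SD of replicates in 96 of 104 values. Scaling by total counts moved ASPH to 3.97, GGH to 1.40, SDCBP to 0.20, RAB2A to -0.09 and CHD7 to -0.10, and YTHDF3, at -0.20, was called lower. TTPA moved to 8.12 without parental replicate 2 and 7.19 without parental replicate 3. Over all alternatives ASPH ranged from 3.97 to 4.10, GGH from 1.40 to 1.55 and SDCBP from 0.20 to 0.34. NSMAF, RAB2A and CHD7 took either sign around 0. Across the 58 to 64 Mb interval, counts of 5 to 7 higher and 0 to 3 lower genes were found, and only the narrower interval of 60 to 64 Mb, which leaves out FAM110B and UBXN2B, gave 5 higher and 0 lower. With a replicate block, 6179 genes were higher and 6158 lower over the whole table, beside 6173 and 6150 without it. Same-numbered libraries did not deviate together (correlations of -0.00808 to 0.0493, and not every library correlated best with its own number), so the numbers are not taken to pair them, and the replicate block changed the call of TOX3 (adjusted p = 0.0168). TOX3 was called lower under 5 of the alternatives, and YTHDF1 with total count scaling (adjusted p = 0.00792). That scaling moved the median of all tested loci by -0.095 and gave 5208 higher and 7094 lower genes over the table, with 3 lower in the interval. With no filter CLVS1 was also called higher. The vitamin E list had fewer than 3 genes higher in 10 of 13 alternatives. Leaving out 1 library gave 5629 to 6133 higher and 5813 to 6157 lower genes. The few parental counts of TTPA, NKAIN3 and the noncoding loci limit the precision of their ratios.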
